A study of Mus musculus with 7 samples.

Results

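The genes described are 10 markers of Kupffer cells and other macrophages: Clec4f, C1qa, C1qb, C1qc, Cd68, Adgre1, Csf1r, Marco, Cd5l and Cd14. They were chosen by name, and a probe set was taken for a marker where the platform annotation gave it that symbol alone. All 10 were found, on 14 probe sets, among the 8251 named genes of the array. The data are 7 liver RNA samples of female mice, with 1 Affymetrix mouse U74Av2 array per sample. All samples formed 1 group of phenotypically normal animals (genotype +/+ or +/df) with free access to food, killed at 24 to 26 months of age. Replicate numbers 1, 2, 3, 4, 6, 7 and 8 are those of the titles. The description label names the Ames dwarf genotype (df/df) instead, and the group is kept as titles, source names and the series title give it. No label says outright that the samples came from separate animals, so the spread between them may be in part technical. With 1 group there is no treated or control animal to compare.

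Kupffer cells are the resident macrophages of the liver. They line the sinusoids and clear bacteria, debris and worn-out red blood cells from portal blood. They depend on signals through the Csf1 receptor, and in whole liver RNA their transcripts are diluted by those of the far more numerous hepatocytes. Because the RNA came from whole tissue, fewer cells of a type and less RNA per cell cannot be told apart.

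The promoters of genes whose values carry the results below are shown with 1 motif in capitals, the core letters GAGGAA bound by PU.1, the ETS factor that macrophage genes rely on, on either strand (TTCCTC on the other). Each runs 5′ to 3′ in the sense of the gene, from 250 bases before the start to 50 after it, as given by RefSeq for GRCm38.p6. The window for C1qb, on the minus strand of chr4:136886151-136886450, held 1 match. That for C1qc, on the minus strand of chr4:136892865-136893164, held 1 match on the other strand. That for Cd5l, on the plus strand of chr3:87357631-87357930, also held 1 match on the other strand. That for Clec4f, on the minus strand of chr6:83656067-83656366, held none.
C1qb: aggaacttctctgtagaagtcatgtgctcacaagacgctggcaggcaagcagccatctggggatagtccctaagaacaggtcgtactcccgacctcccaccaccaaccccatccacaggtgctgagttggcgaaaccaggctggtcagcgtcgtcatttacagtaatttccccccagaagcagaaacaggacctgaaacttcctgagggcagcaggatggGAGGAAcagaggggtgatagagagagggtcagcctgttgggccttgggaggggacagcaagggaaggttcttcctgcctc
C1qc: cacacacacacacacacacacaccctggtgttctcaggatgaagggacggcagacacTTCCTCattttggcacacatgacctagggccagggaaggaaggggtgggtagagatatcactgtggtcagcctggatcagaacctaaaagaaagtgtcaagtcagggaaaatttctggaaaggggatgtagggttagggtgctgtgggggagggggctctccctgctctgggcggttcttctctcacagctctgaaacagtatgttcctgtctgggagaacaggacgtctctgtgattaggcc
Cd5l: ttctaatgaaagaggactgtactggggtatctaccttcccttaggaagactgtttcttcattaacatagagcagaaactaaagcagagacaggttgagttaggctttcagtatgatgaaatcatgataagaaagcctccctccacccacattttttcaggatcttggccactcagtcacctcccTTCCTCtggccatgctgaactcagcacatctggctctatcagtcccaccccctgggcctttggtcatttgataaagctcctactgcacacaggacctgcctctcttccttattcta
Clec4f: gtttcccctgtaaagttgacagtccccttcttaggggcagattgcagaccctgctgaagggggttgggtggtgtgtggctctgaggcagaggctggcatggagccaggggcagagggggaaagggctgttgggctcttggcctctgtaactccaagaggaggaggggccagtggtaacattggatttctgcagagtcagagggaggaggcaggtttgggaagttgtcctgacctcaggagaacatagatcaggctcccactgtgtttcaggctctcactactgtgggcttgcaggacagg
The matches began 30 bases before the start in C1qb, 193 before it in C1qc and 66 before it in Cd5l. Of the 6 markers whose windows were searched, Marco and Cd68 being the others, 5 held at least 1 match; C1qa, Csf1r, Adgre1 and Cd14 were not searched. Of all 32851 windows of this length in the table, 28.3% held it. TGCTGAC, a site of Maf factors (GTCAGCA on the other strand), which does not overlap the PU.1 letters, was in none of the 6 windows and in 4.67% of all. These matches describe the letters and are not binding sites measured here.

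Values are intensities scaled to a common trimmed mean. A signal below 50.04, 0.1 of that mean, was treated as at the floor, and genes with a mean of at least 200.1 were tested. Signals of different probe sets cannot be set against each other as amounts of RNA, so each marker is compared with itself across arrays. Sums over several genes are given below as a description only, and the brightest probe sets weigh most in them. Of the 10 markers, 8 passed the filter, as did 54.3% of all named genes. Adgre1 and Marco did not pass, and their values are described with no test. Bacterial control RNAs added to each sample gave a mean log2 signal between 10.64 and 10.97 on replicates 1 to 4, against 10.20 to 10.24 on replicates 6 to 8, and the arrays are compared as these 2 sets. No label says what the sets are. The 3′ to 5′ ratio of the beta-actin control was 1.34, 1.31, 1.56 and 1.74 on replicates 1 to 4, against 1.69, 1.78 and 1.69 on replicates 6 to 8. It was thus lowest on replicates 1 and 2, and replicate 4 lay within the range of the second set. The same ratio for Gapdh was 0.804 to 0.907 in the first set, against 0.788 to 0.875 in the second.

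The C-type lectin Clec4f, which marks mouse Kupffer cells (NCBI gene 51811), had signals of 1514, 1348, 1386 and 1508 on replicates 1 to 4, against 1583, 1889 and 1777 on replicates 6 to 8. Every value on replicates 1 to 4 thus lay below every value on replicates 6 to 8. Cd5l, a protein that macrophages secrete and that protects them from apoptosis (NCBI gene 11801), had 753, 790.2, 899 and 755 on replicates 1 to 4, against 943, 1045 and 915 on replicates 6 to 8. Its values did not overlap between the sets either. Over all 7 arrays, Clec4f had a mean of 1572 ± 198 and Cd5l of 872 ± 109.6 (SD, n = 7 each). The highest signal was 1.40 times the lowest for Clec4f and 1.39 times for Cd5l.

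The 3 C1q genes encode the A, B and C chains of C1q, the part of the first complement component that recognises antibody complexes and dying cells. They lie next to each other on mouse chromosome 4, in RefSeq's GRCm38.p6 annotation. In liver C1q is made mainly by macrophages, while most other complement proteins come from hepatocytes. C1qa (NCBI gene 12259) had 1637, 1499, 1223 and 1223 on replicates 1 to 4, against 1479.7, 1631 and 1696 on replicates 6 to 8, so its 2 lowest values were on replicates 3 and 4 and the sets overlapped. C1qb (NCBI gene 12260) had 659, 684, 596 and 620.3 on replicates 1 to 4, against 686, 743 and 699.5 on replicates 6 to 8. These did not overlap, although the nearest values, 684 on replicate 2 and 686 on replicate 6, were close. C1qc (NCBI gene 12262) had 1412, 1287, 1244 and 1264 on replicates 1 to 4, against 1768, 1631 and 1327 on replicates 6 to 8. It was high on replicates 6 and 7 and within the range of the other set on replicate 8. The 2 lowest of these values were on replicates 3 and 4 for C1qb and C1qc too, as for C1qa. The means over 7 arrays were 1484 ± 194 for C1qa, 669.8 ± 49.6 for C1qb and 1419 ± 203 for C1qc.

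Csf1r is the receptor for Csf1 and Il34 that keeps macrophages alive (NCBI gene 12978). It had 604, 881, 837 and 724 on replicates 1 to 4, against 765, 1168 and 1086 on replicates 6 to 8. Replicates 7 and 8 stood above the other 5 arrays, and replicate 1 was the lowest. Its mean was 867 ± 199.9 with a 1.93-fold range, the widest among the 8 tested markers. Adgre1, an adhesion receptor long used as a surface marker of mouse macrophages (NCBI gene 13733), had 120.3, 93.8, 126 and 171 on replicates 1 to 4, against 168, 209 and 206 on replicates 6 to 8. All its values lay above the floor but its mean, 156 ± 44.1, was below the filter. Replicate 4 was the only array of the first set to reach the second, and the range was 2.22-fold.

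The scavenger receptors differed from each other. Cd68, a lysosomal glycoprotein of macrophages (NCBI gene 12514), had 436, 389.9, 470.1 and 453 on replicates 1 to 4, against 451, 542 and 469.6 on replicates 6 to 8. Replicate 7 was high and replicate 2 low, with the other 5 arrays between 436 and 470.1. Marco, a scavenger receptor with a collagen-like stalk that binds bacteria (NCBI gene 17167), lay between 7.60 and 11.6 on 6 arrays, below the floor. On replicate 7 it had 68.3, just above the floor. Cd14, a co-receptor for bacterial lipopolysaccharide that hepatocytes can also make (NCBI gene 12475), had 319.9, 427, 397 and 489 on replicates 1 to 4, against 449, 302 and 432 on replicates 6 to 8. It was lowest on replicate 7, where Clec4f, C1qb, Cd68, Adgre1, Csf1r, Marco and Cd5l had their highest values. Of the 8 tested markers, 5 were highest on replicate 7, as were 14.6% of all tested genes.

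**Figure D1:**
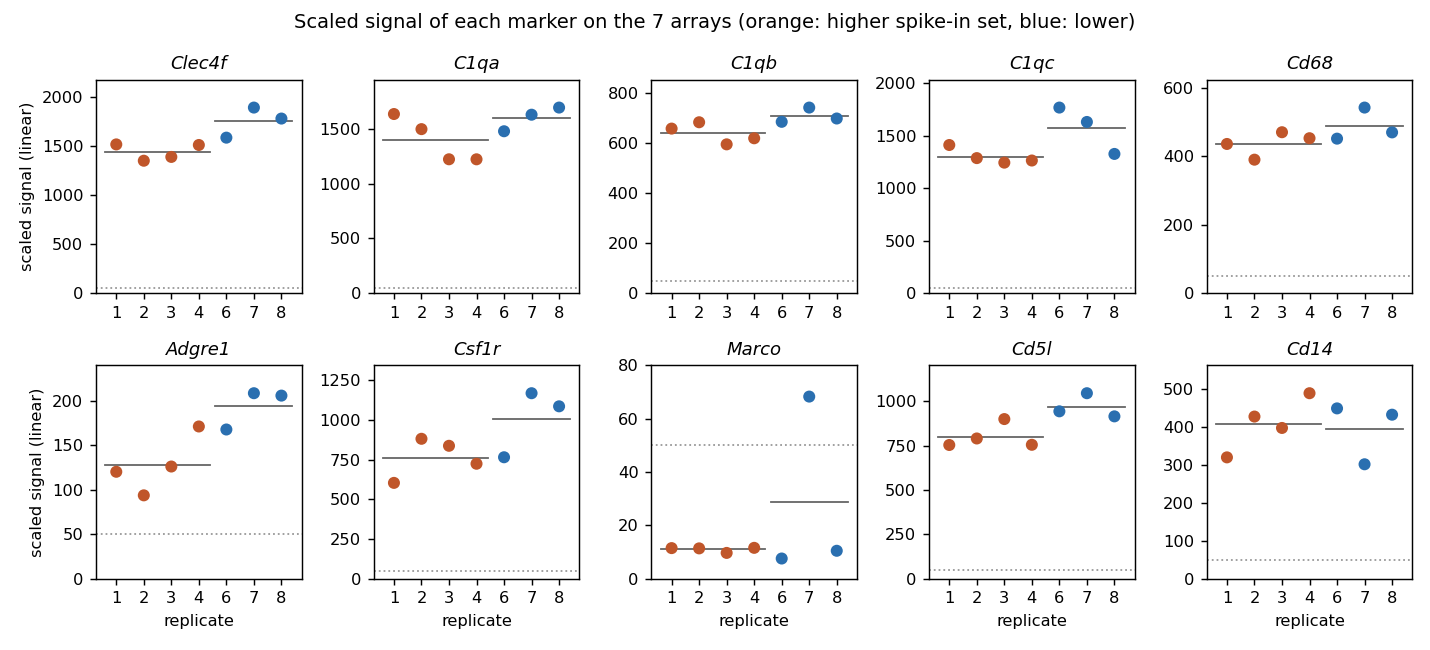
Scaled signal (linear, from 0) of each marker on the 7 arrays, with orange points for replicates 1 to 4 and blue points for replicates 6 to 8, a line at the mean of each set and a dotted line at the floor of 50.04. Clec4f, Cd5l and C1qb do not overlap between the sets, and Marco is above the floor on replicate 7 alone.

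Of the 10 markers, 4 had a second probe set. The second probe sets for Cd68 and Adgre1 were below the floor on all 7 arrays, at means of 6.26 and 33.3. That for C1qb had 314, 335, 348 and 391 on replicates 1 to 4, against 296, 368 and 369 on replicates 6 to 8, and across the 7 arrays it had r = -0.08 with the brighter one. That for Csf1r had 121, 152, 79.7 and 119.8 on replicates 1 to 4, against 87.7, 117 and 138 on replicates 6 to 8, with r = 0.22. Neither showed the lower values on replicates 1 to 4 that the brighter probe set of its gene showed. These second probe sets carry the suffixes _i_at for C1qb and _r_at for Csf1r, and the brighter one of Cd68 carries _s_at. How these suffixes bear on the signals was not tested. The values of C1qb and Csf1r here are those of the brighter probe set.

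The median SD of log2 signals over the 8 tested markers was 0.19, and over all 4481 tested genes 0.18. In the limma-based test of spread, 0 of the 8 markers and 0 of 4481 genes (0% of genes called) passed at an adjusted p of 0.05. On simulated data the adjusted test missed nearly all genes made more variable, so these counts of 0 say little about how steady the markers were. At an unadjusted p of 0.05 the counts were 0 of 8 markers and 301 genes, or 6.72%. Csf1r came nearest, with a log2 SD of 0.33 against 0.17 expected at its level (limma adjusted p = 0.811). Cd14 had 0.26 against 0.20 expected. C1qb was the steadiest, at 0.11 against 0.17, and 12.4% of tested genes had a smaller log2 SD.

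**Figure D2:**
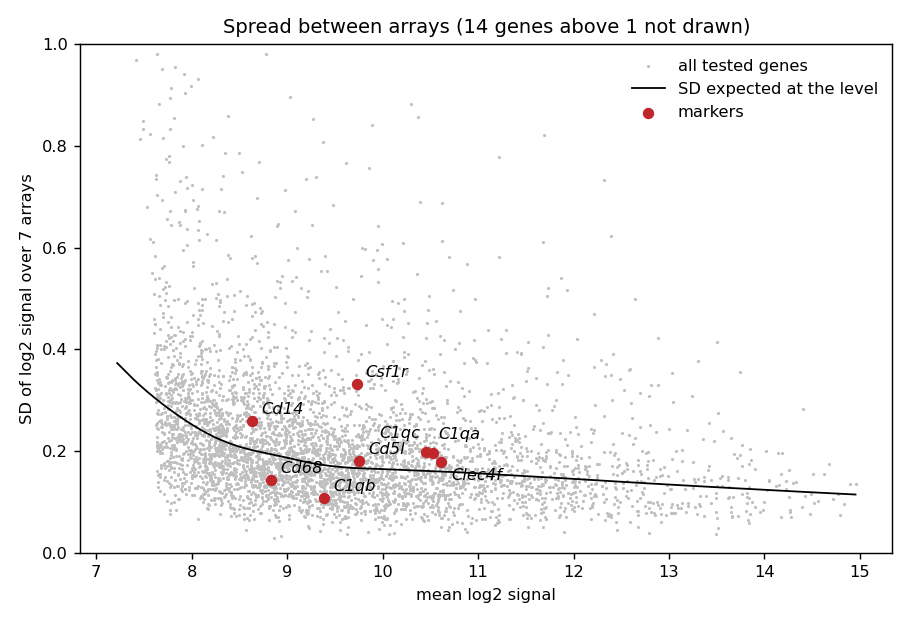
SD of log2 signals over the 7 arrays against the mean log2 signal, with a grey point for each tested gene, a line for the SD expected at each level and red points for the 8 tested markers. Csf1r lies highest above the line and C1qb below it.

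The mean signal of each tested marker except Cd14 was lower on replicates 1 to 4 than on replicates 6 to 8, though no single difference passed the adjusted test. Of the 8 tested markers, 7 had a lower mean there, as did 52.7% of tested genes, and the median log2 difference was -0.24 for the markers and -0.01 for all tested genes. The signals summed over all 10 markers were between 7190 and 7466 on replicates 1 to 4, against 8301 to 9228 on replicates 6 to 8. Bright probe sets weigh most in such a sum. Summed over all 8251 named genes, signals did not overlap either, in the other direction. They were between 6.955e+06 and 7.114e+06 on replicates 1 to 4, against 6.856e+06 to 6.947e+06 on replicates 6 to 8. Of the 8, 3 (Clec4f, C1qb and Cd5l) were lower on every array of the first set than on any of the second, as were 3.62% of tested genes. With median centring in place of the trimmed mean this held for 1 marker, and with quantile normalization for 2. No difference passed the limma fit at an adjusted p of 0.05, in the markers or in any of 4481 genes (0%). In either direction, 309 genes had an unadjusted p below 0.05. At an unadjusted p of 0.05, 4 of 8 markers (Clec4f, C1qc, Csf1r and Cd5l) were lower on replicates 1 to 4, as were 3.21% of tested genes. That count was 1 without replicate 2 or without replicate 4, 2 without replicate 8 and 0 without replicate 7.

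By marker, the log2 difference between the sets, replicates 1 to 4 minus replicates 6 to 8, was -0.39 ± 0.17 (SE) for Csf1r, with means of 762 ± 124 and 1007 ± 213 (SD, n = 4 and 3; limma adjusted p = 0.713). Clec4f had means of 1439 ± 84.5 and 1749 ± 155 on the same sets and a log2 difference of -0.28 ± 0.10 (limma adjusted p = 0.667). Cd5l had 799 ± 68.8 and 968 ± 68.6, with a difference of -0.28 ± 0.11 (limma adjusted p = 0.681). C1qc had 1301 ± 75.5 and 1575 ± 226, with a difference of -0.27 ± 0.12 (limma adjusted p = 0.713). The differences of C1qa, Cd68 and C1qb were -0.21, -0.16 and -0.15, with SEs of 0.13, 0.13 and 0.10. Cd14 differed by 0.06 ± 0.18, with means of 408 ± 70.2 and 394 ± 80.6. With the set means removed, the log2 SD went from 0.18 to 0.11 for both Clec4f and Cd5l, and from 0.26 to 0.28 for Cd14. For C1qa it went from 0.20 to 0.18, for C1qb from 0.11 to 0.08 and for C1qc from 0.20 to 0.15. For Cd68 it went from 0.14 to 0.13 and for Csf1r from 0.33 to 0.28. A fall follows from the difference between the sets and is no separate result. The part of the array set, or of the beta-actin ratio, in these differences was not tested, and set and sample cannot be told apart, since each sample was on 1 array of 1 set.

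**Figure D3:**
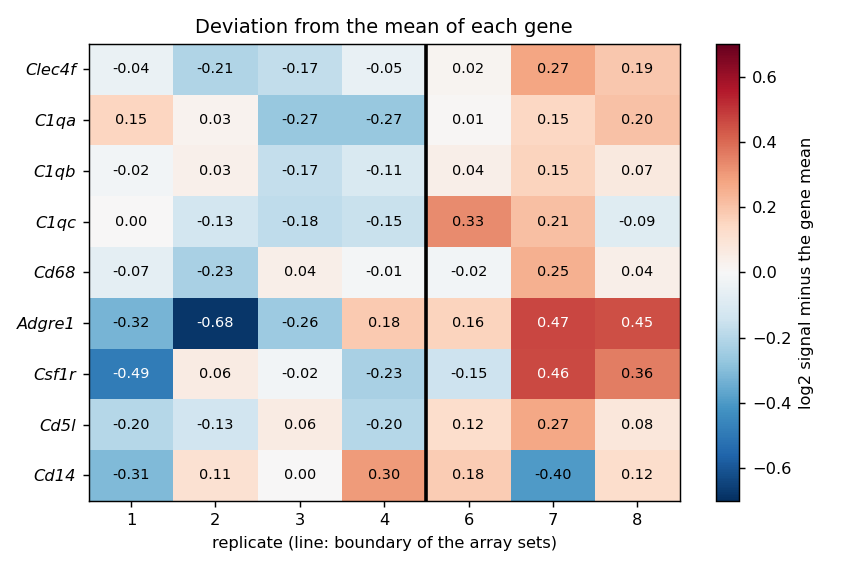
Log2 signal minus the mean of the gene for 9 markers (Marco, at the floor, is left out) on each of the 7 arrays, red above and blue below the mean, with a line between replicates 1 to 4 and 6 to 8. On replicate 7 the deviation is above 0 for every marker drawn except Cd14, at -0.40.

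Markers of other cells were set beside these. Of the list of other Kupffer cell genes, 7 of 13 were on the array under a single symbol and 6 were tested, of which 4 were lower on replicates 1 to 4, with a median log2 difference of -0.12 and none at an unadjusted p of 0.05. It included Nr1h3, the nuclear receptor LXR alpha, at 1708 ± 153, the heme oxygenase Hmox1 at 1055 ± 175, the lipid transfer protein Pltp at 972 ± 238 and Id3 at 572 ± 95.1 (SD, n = 7). These 4 genes are also expressed in other liver cells. The ficolin Fcna and the folate receptor Folr2, with 382 ± 52.7 and 367 ± 50.3, overlapped between the sets. Spic, a factor of iron-recycling macrophages, was below the floor on all arrays. Of 9 tested genes of the wider macrophage list, 7 were lower on replicates 1 to 4, with a median of -0.16. Of these, 1 had an unadjusted p below 0.05, the lysosomal protease Lgmn, chosen after its values were seen, with between 497 and 555 on replicates 1 to 4, against 639.8 to 723 on replicates 6 to 8 (limma adjusted p = 0.543).

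Of the 9 tested genes of the wider list, Lcp1 and Lyz2 had higher means on replicates 1 to 4. The actin-bundling protein Lcp1 had between 1245 and 1436 on replicates 1 to 4, against 1103 to 1266 on replicates 6 to 8, a log2 difference of 0.21 ± 0.10 (limma adjusted p = 0.740). The protease Ctss and the pore protein Mpeg1 had log2 differences of -0.12 and -0.16, with overlap between the sets. Both were highest on replicate 8, at 1734 and 1601, and lowest on replicate 4, at 1143 and 861. The lysosomal membrane protein Laptm5, with a log2 difference of -0.28, was also highest on replicate 8, at 1267. The lysozyme Lyz2, with a log2 difference of 0.15 ± 0.32, had the largest log2 SD of the 9 tested genes of the list, 0.47. Its lowest signal, 241, was on replicate 6 and its highest, 679, on replicate 7. Cd52 came next in log2 SD with 0.37, and its log2 difference was -0.34. Fcer1g, a signalling chain of Fc receptors, and the integrin Itgam, a marker of monocytes and neutrophils, were below the floor on all 7 arrays.

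The hepatocyte list ran the other way, with 5 of 6 genes higher on replicates 1 to 4 and a median log2 difference of 0.14, and 3 of the 6 (Alb, Apoa1 and Cyp2e1) had an unadjusted p below 0.05. Its summed signal was between 138735 and 160668 on replicates 1 to 4, against 126842 to 141049 on replicates 6 to 8. The cytochrome gene Cyp2e1 had between 24779 and 29736 on replicates 1 to 4, against 22377 to 23808 on replicates 6 to 8. The stellate cell list had a median difference of 0.04 over 4 tested genes, with 2 of 4 lower on replicates 1 to 4. Its summed signal did not overlap, at 8222 to 9233 in the first set and 7363 to 8036 in the second. The sum over all named genes was also higher in the first set, with no overlap. The matrix proteoglycan Dcn was higher on replicates 1 to 4 by 0.34 ± 0.10 on the log2 scale, the 1 gene of the list with an unadjusted p below 0.05. Dcn had the highest mean of the stellate cell list, 4677 ± 676, and so weighed most in its summed signal. No sum without Dcn was made. The next brightest, Col1a2, at 1813 ± 225, differed the other way, by -0.15 ± 0.13. The endothelial list had a median of -0.04 over 4 tested genes and sums of 3033 to 4749 in the first set, against 3827 to 4367 in the second. The monocyte and dendritic cell list had 0.06 over 4. The neutrophil list had -0.22 over 3, and all 3 had lower means on replicates 1 to 4: the granule peptide Camp by a log2 difference of -0.63 ± 0.25, the only 1 with an unadjusted p below 0.05, and the cytokine receptor Csf3r and the elastase Elane by -0.22 each. Its summed signal was between 1539.7 and 1924 on replicates 1 to 4, against 1958 to 1984 on replicates 6 to 8, with S100a9 below the floor on 5 arrays and Ngp on 6. Csf3r, at 981 ± 120, weighed most in this sum. Its untested genes were mixed. S100a8 had 161, 95.0, 86.0 and 88.2 on replicates 1 to 4, against 87.3, 96.4 and 98.4 on replicates 6 to 8. Ltf, below the floor on 3 arrays, had 68.3, 112, 97.9 and 31.2, against 92.6, 39.8 and 39.6 on the same sets. Mpo had 52.5, 46.6, 72.9 and 72.4, against 88.2, 61.4 and 63.8. The B and plasma cell list had 0.16 over 3 tested genes, and the list of T and NK cells had 1 tested gene, Cd4, while 4 of its 6 genes on the array did not reach the floor. The part of hepatocyte, stellate cell and neutrophil RNA in the marker differences was not tested.

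**Figure D4:**
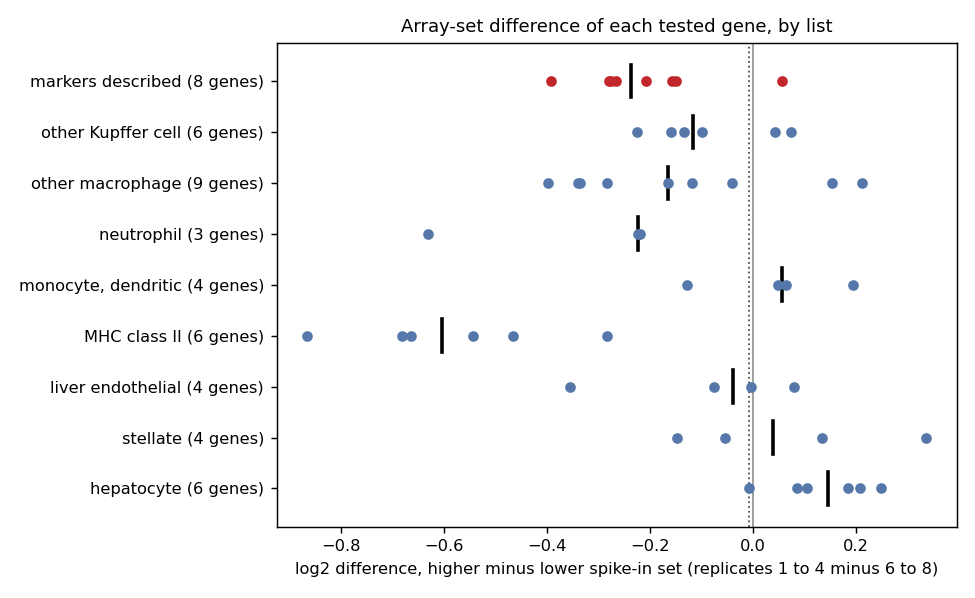
Log2 difference of each tested gene between replicates 1 to 4 and replicates 6 to 8 (points), by list, with a black bar at the list median and a dotted line at the median of all tested genes. The 8 markers have a median of -0.24 and 7 lie below 0, while the hepatocyte list has a median of 0.14.

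The MHC class II list had a median difference of -0.60 over 6 tested genes, all 6 lower on replicates 1 to 4, but with wide overlap between the sets. The invariant chain Cd74 had 4437, 4541, 2520.2 and 1815 on replicates 1 to 4, against 3325, 3497 and 4619 on replicates 6 to 8. H2-Ab1 had 570.3, 785, 382 and 158 on replicates 1 to 4, against 601, 603 and 1113 on replicates 6 to 8. Both were lowest on replicates 3 and 4, as were C1qa, C1qc and the brighter probe set of C1qb. Clec4f had 1508 on replicate 4, near its median of 1514, and Cd14 had its highest value there. The muscle actin Acta1 was high on replicates 1 and 2, at 5991 and 2034, and between 10.5 and 100.4 elsewhere, and it belongs to a skeletal muscle list with a median difference of 1.35 over 5 tested genes. All 5 were higher on replicates 1 to 4 by their means, highest on replicate 1 and next on replicate 2, and had an unadjusted p of spread below 0.05, and 1 of 5 differed between the sets at that level. The untested muscle genes Ckm and Myh4 were lowest on replicate 1, at 143.8 and 102.6. No tested marker was highest on replicates 1 or 2, and 4 of 8 were lowest there, Csf1r and Cd5l on replicate 1 and Clec4f and Cd68 on replicate 2. Of all tested genes, 14.4% were highest on replicate 1 and 11.6% on replicate 2, while 16.6% were lowest on replicate 1 and another 14.3% on replicate 2. The part of muscle RNA in the marker values was not tested. The interferon list had a median difference of 0.05 over 9 tested genes but varied widely between arrays. Of these 9, 6 had an unadjusted p of spread below 0.05, as did all 6 tested MHC class II genes and 6.72% of all tested genes. The median log2 SD was 0.54 for the interferon list and 0.64 for the MHC class II list, against 0.18 over all tested genes. None of these genes passed the adjusted test of spread.

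Correlations between markers were positive in 21 of 28 pairs, but none passed its adjusted test. Pearson's r was computed for all 28 pairs of the 8 tested markers, with a median of 0.49. All 21 pairs without Cd14 were positive, with r from 0.12 to 0.84 and a median of 0.60, and all 7 pairs with Cd14 were negative, from -0.52 to -0.15. This split by Cd14 was not planned and rests on the sign of these same values. The median over all pairs of tested genes was 0.00, and 5021692 of 10037440 were positive. Of the 28 pairs, 3 had an unadjusted exact permutation p below 0.05 and 0 passed when adjusted over the 28, the smallest adjusted p being 0.364. The pairs share arrays and genes, so the 21 positive values are not separate observations. With the set means removed, 12 of the 21 were positive and their median was 0.06. Without replicate 7 their median was 0.34 and 18 of 21 were positive.

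The highest r was that of C1qa with C1qb, 0.84 (exact permutation p = 0.023, adjusted p = 0.364), with Spearman's rho = 0.64 (exact permutation p = 0.139, adjusted p = 0.486). It was 0.23 without replicates 3 and 4 together, the arrays farthest from the median of C1qa, 0.74 without replicate 3 alone, 0.81 without replicate 4 alone and 0.77 with set means removed. Leaving out both also narrows the range of C1qa. With the mean of both C1qb probe sets it was 0.33. C1qc had r = 0.44 with C1qa (exact permutation p = 0.304, adjusted p = 0.532; rho = 0.46, p = 0.302) and 0.64 with C1qb (exact permutation p = 0.125, adjusted p = 0.394; rho = 0.75, p = 0.066). With set means removed these were 0.06 and 0.21, and without the 2 farthest arrays -0.32 and 0.34. Clec4f had r = 0.79 with Cd68 (exact permutation p = 0.028, adjusted p = 0.364; rho = 0.54, p = 0.236), 0.47 without replicates 7 and 8 and 0.68 with set means removed. Cd68 had r = 0.76 with Cd5l (exact permutation p = 0.044, adjusted p = 0.364; rho = 0.61, p = 0.167), 0.66 without replicates 2 and 7 and 0.59 with set means removed. Csf1r had r = 0.75 with Cd5l (exact permutation p = 0.052, adjusted p = 0.364; rho = 0.75, p = 0.066), 0.37 without replicates 1 and 7 and 0.53 with set means removed.

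**Figure D5:**
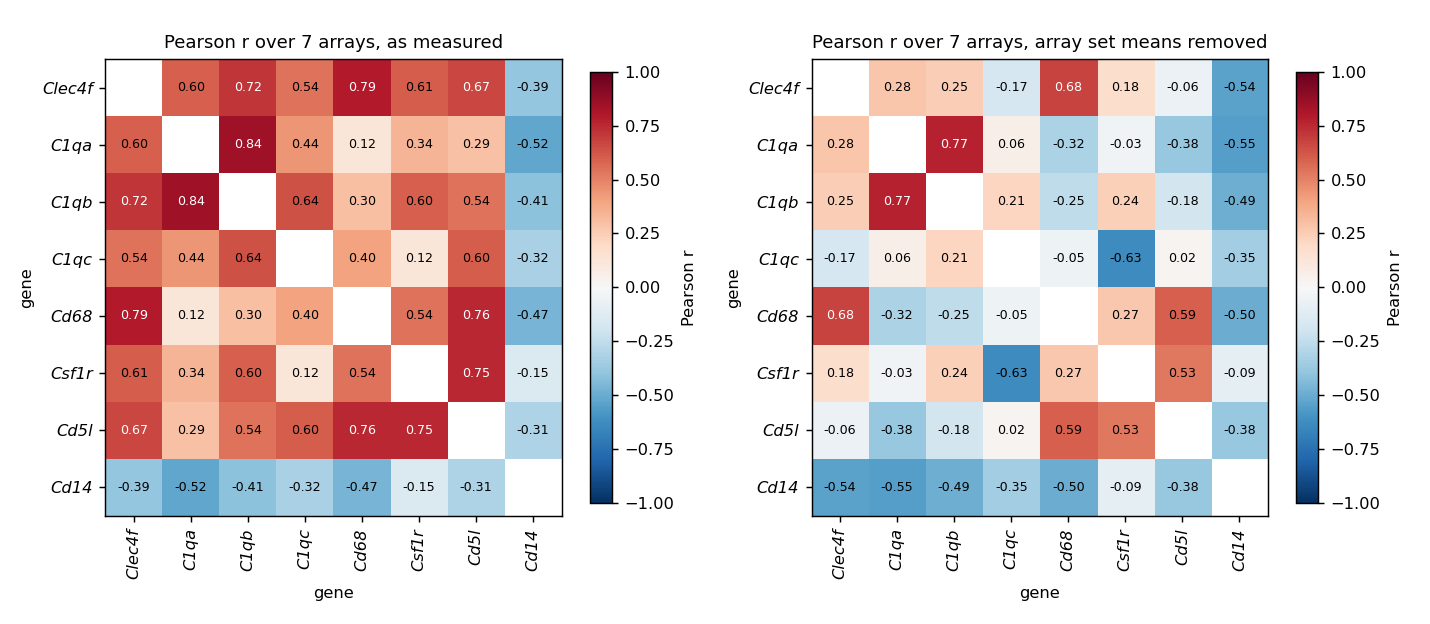
Pearson's r across the 7 arrays for each pair of the 8 tested markers, as measured (left) and with the mean of each array set removed (right), red for positive and blue for negative. On the left all pairs without Cd14 are positive and all with Cd14 negative, and on the right 12 of the 21 pairs without Cd14 are positive.

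Among the 4480 other tested genes, ranked by r with C1qb across the 7 arrays, C1qa stood at place 33 and C1qc at place 299. For Clec4f, the nearest markers were Cd68 at place 70 and C1qb at place 145. The genes outside the markers nearest to Clec4f were Memo1, Tmem183a and Glce (r = 0.96, 0.95 and 0.95), and those nearest to C1qa were Metap1, Tcf12 and Flt4 (0.97, 0.96 and 0.94). C1qb was nearest to Fam3a, Bub3 and Anxa5 (0.95, 0.94 and 0.93), and C1qc to Rpn2, Ece1 and Stxbp2 (0.98, 0.95 and 0.95). Those nearest to Cd68 were Mrpl28, Eif2b4 and Prkcb (0.96, 0.95 and 0.94), to Csf1r Orm2, Pon3 and Lrrc59 (0.95 each), and to Cd5l Nucks1, Cln3 and Snap47 (0.95, 0.94 and 0.94). Cd14 was nearest to Tmc6, Mcee and Ndufaf4 (0.98, 0.97 and 0.96). These are the highest of 4480 values over only 7 arrays and are given as a description.

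Partners of the markers in their pathways were measured as well. Of the Csf1 pathway, 6 of 7 genes were on the array under a single symbol and 3 were tested. The ligand Csf1 had 386 ± 84.5 and was highest on replicate 1, at 559, where Csf1r was lowest. On the other arrays Csf1 lay between 325 and 407, while Csf1r ran from 724 to 1168. Spi1, which encodes PU.1, had 256 ± 42.7, and Csf2, the ligand of another receptor, was below the floor on all arrays. Of the lipopolysaccharide receptor list, 5 of 7 were on the array. Lbp, the plasma protein that hands lipopolysaccharide to Cd14, had 1669 ± 263 and was highest on replicate 7, at 2039, where Cd14 was lowest. A link of Csf1 with Csf1r, or of Lbp with Cd14, was not tested. The adaptor Myd88 had 258 ± 36.0 and the kinase Irak1 585 ± 67.6 (SD, n = 7 each).

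Of the other complement genes, 6 of 12 were on the array and 5 were tested, with a median log2 difference between the sets of -0.03. C1ra, a protease that C1q carries, had between 1332 and 1516 on replicates 1 to 4, against 1437 to 1666 on replicates 6 to 8. C2, cut by the active C1 complex, had between 1380.0 and 1663 on replicates 1 to 4, against 1826 to 2002 on replicates 6 to 8, and was the 1 gene of the list with an unadjusted p below 0.05 (limma adjusted p = 0.593). The C1 inhibitor Serping1 had 9787 ± 864, the complement component gene Hc 3532 ± 312 and C9 2743 ± 362. Of the list of scavenger and efferocytosis genes, which holds Cd68 and Marco, 7 of 11 on the array were tested, with a median difference of -0.15, 5 of 7 lower on replicates 1 to 4 and none at an unadjusted p of 0.05. Scarb1, a lipoprotein receptor also made by hepatocytes, had 3102 ± 540.3, and Gas6, a bridge to dying cells, 1101 ± 172, with its lowest value on replicate 7, at 774. Pros1 and Stab1 had 566 ± 68.3 and 511 ± 78.1.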

How the data were processed

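Liver RNA was hybridised to 1-colour arrays and scanned on a Hewlett-Packard GeneArray instrument, per the labels; the software used is not given in the sources used here. Values as deposited are linear intensities, already scaled by the authors: the mean after trimming 2% at each end was 500.36 to 500.39 on every array. The number of arrays limits precision.

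Of 12488 probe sets, 66 were controls and 10833 others had 1 gene symbol. Signals were rescaled to the common trimmed mean, floored at 0.1 of it and put on the log2 scale. The probe set of highest mean stood for its gene. Only genes averaging 0.4 of the trimmed mean or more were tested.

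Spread was tested in limma 3.58.1 (R 4.3.3) by an F test of each variance against a robust prior that follows the level. The array sets, read from the control RNAs at their widest gap, were compared with limma's eBayes (trend, robust). P-values were Benjamini-Hochberg adjusted over all tested genes, and both fits were tested on simulated data, where the adjusted test of spread found few of the changed genes and the comparison of sets found most large differences and missed most small ones. Correlations used exact two-sided permutation tests, adjusted over the 28 pairs.

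The markers, gene lists and tests were chosen with earlier results of these data known. Named genes are the markers, the 3 nearest to each, up to 4 of highest level per list, the 2 of largest log2 SD in the Kupffer cell and macrophage lists, and Acta1, Cd74 and H2-Ab1. Fcna, Folr2, Spic, Lgmn, Fcer1g, Itgam, C1ra, Csf2, S100a8, S100a9, Ltf, Mpo, Ngp, Ckm and Myh4 were named after their values were seen. The second probe sets and the counts of markers lower on replicates 1 to 4 were also added then. The split of marker pairs by Cd14 was not planned. Alternatives varied the scaling, floor, filter, probe set rule and prior, and left out each array.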

Additional observations from a re-analysis of the deposited data

Results flagged for a closer look

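The Marco signal on replicate 7, 68.3, stood apart from the other 6 arrays, which lay between 7.60 and 11.6. Its gap to the nearest of them was 0.934 of the whole range, above Dixon's 95% critical value for 7 samples. All 10 markers were screened in this way, and Marco alone was flagged. Chance alone sets a sample apart in about 1 of 20 groups for each gene screened, and so more often over 10 genes. The 7 values are below the floor of 50.04 or just above it.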

How the results depend on the processing

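No marker passed the test of spread or the comparison of array sets, and no pair of markers passed, under any alternative run, although the adjusted test of spread has little power with 7 arrays. With set means removed, arrays were permuted only within each set. That left so few permutations that a single pair could not have passed after adjustment. The count of genes past the test of spread was 1 when an offset replaced the floor and 0 to 1 with an array left out, against 0. Without a filter, 2 genes differed between the sets, against 0. Of the 8 markers, 7 were lower on replicates 1 to 4 under each scaling, and 7 to 8 with an array left out. Those lower on every array of that set numbered 1 with median centring, 2 with quantile normalization and 2 with the mean of all probe sets, against 3. With an array left out they numbered 3 to 4. Those with an unadjusted p below 0.05 numbered 2 with quantile normalization or without the trend and 0 to 3 with an array left out, against 4. The difference of Cd14 between the sets ranged from -0.13 to 0.17 with an array left out, below 0 without replicate 4 (-0.04) or replicate 7 (-0.13). On the second probe set it was 0.014 for C1qb and 0.035 for Csf1r, against -0.15 and -0.39. With the mean of all probe sets, r of C1qb was -0.025 with C1qc, against 0.64, and 0.33 with C1qa, against 0.84, and the log2 SD of Cd68 was 0.07, against 0.14, since its second probe set is at the floor. No paired analysis was possible because all samples form 1 group.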
